A study of Mus musculus with 8 samples.

Results

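The neutrophil granule genes are 9 genes, S100a8, S100a9, Ngp, Camp, Ltf, Lcn2, Mpo, Elane and Retnlg, taken by name from a table of 24421 mouse genes measured by RNA sequencing in dorsal root ganglia (DRG). All 9 were in the table and all 9 were among the 17328 genes that passed the filter on low counts and were tested. They were taken as products of neutrophils and of their precursors, with earlier results of these data known. The labels give all mice as wild-type C57BL/6J, and the methods of the study as the substrain C57/Bl6JRj. The series description gives their age as 8 weeks, while the methods give a range of ages that starts there. The 0d mice were taken before any injection and received no vehicle, so that injection itself is not separated from the agent. The 1d, 3d and 30d mice received 20 µL of 1% carrageenan, a seaweed polysaccharide that causes local inflammation, in the left hind paw, and their L3 to L5 ganglia were taken 1, 3 or 30 days later. Each time point had 2 libraries, each from the pooled ganglia of 2 to 3 mice that had been perfused through the heart. The labels give the cell type as DRG neurons, but whole ganglia were dissected. Markers of sensory neurons (9 genes, summed 5640 to 6310 CPM, read counts scaled to the total of each library) and of glia (7 genes, summed 6310 to 10900 CPM) were both abundant in every library.

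Neutrophils are short-lived white blood cells that are made in the bone marrow, circulate in blood and enter injured tissue. They carry antimicrobial proteins in granules that are filled in order as the cell matures. Azurophil granule genes such as Mpo and Elane are transcribed in the promyelocyte, specific granule genes such as Ngp, Camp, Ltf and Lcn2 in the later myelocyte, and both are largely shut off in the circulating cell, whereas S100a8 and S100a9 remain abundant in it. Transcription factors of the C/EBP family and PU.1 direct much of this programme.

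The genes lie on 6 chromosomes, given here in mm10 coordinates. S100a8 (chr3:90669071-90670034, plus strand) and S100a9 (chr3:90692630-90695721, minus strand) are neighbours 22.6 kb apart. Camp (chr9:109847377-109849456, minus strand), Ngp (chr9:110419808-110423012, plus strand) and Ltf (chr9:111019292-111042766, plus strand) follow each other on chromosome 9, with 570 kb between Camp and Ngp and 596 kb between Ngp and Ltf. Lcn2 (chr2:32384637-32387739, minus strand), Elane (chr10:79886312-79888216, plus strand), Mpo (chr11:87793784-87804412, plus strand) and Retnlg (chr16:48872608-48874498, plus strand) stand alone. No exon base of the 9 genes is shared with another annotated gene, so that reads counted without strand were not shared with a neighbour's exons.

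The promoters of 2 specific granule genes and 2 azurophil granule genes are shown because Mpo and Elane did not share the order of 1d and 3d that the specific granule genes had. They are the 250 bases before the annotated start, from RefSeq on GRCm38.p6, where all 9 genes were found. Capitals mark TTGCNNAA, letters of the C/EBP type, or GAGGAAG, letters of the PU.1 type, read on either strand and chosen after several patterns had been looked at.
Ngp, chr9:110419558-110419807, plus strand: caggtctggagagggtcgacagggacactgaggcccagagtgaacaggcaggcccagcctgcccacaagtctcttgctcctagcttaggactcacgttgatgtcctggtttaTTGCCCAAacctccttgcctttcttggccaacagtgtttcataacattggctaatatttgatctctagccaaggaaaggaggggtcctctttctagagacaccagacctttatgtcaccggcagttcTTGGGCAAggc
Ltf, chr9:111019042-111019291, plus strand: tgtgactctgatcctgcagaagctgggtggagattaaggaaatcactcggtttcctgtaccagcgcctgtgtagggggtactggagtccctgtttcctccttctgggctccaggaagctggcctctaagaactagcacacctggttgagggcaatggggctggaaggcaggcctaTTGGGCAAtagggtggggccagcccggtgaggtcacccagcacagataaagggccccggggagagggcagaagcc
Mpo, chr11:87793534-87793783, plus strand: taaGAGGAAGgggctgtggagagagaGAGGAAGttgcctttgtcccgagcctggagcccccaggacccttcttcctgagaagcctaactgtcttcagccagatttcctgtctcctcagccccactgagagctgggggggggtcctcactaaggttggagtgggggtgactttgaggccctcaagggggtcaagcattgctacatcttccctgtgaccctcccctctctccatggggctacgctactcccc
Elane, chr10:79886062-79886311, plus strand: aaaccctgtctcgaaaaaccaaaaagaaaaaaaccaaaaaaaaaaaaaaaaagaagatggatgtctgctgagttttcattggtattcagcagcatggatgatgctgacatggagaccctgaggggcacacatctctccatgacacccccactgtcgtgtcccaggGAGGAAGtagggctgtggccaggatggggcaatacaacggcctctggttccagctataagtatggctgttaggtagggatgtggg
TTGCNNAA was present in the promoters of 5 of the 9 genes (S100a9, Ngp, Ltf, Lcn2 and Retnlg) and in 9.56% of 32851 promoter windows of the same length. GAGGAAG was present in 4 of the 9 (S100a8, Lcn2, Mpo and Elane) and in 10.6% of the windows. Camp held neither and Lcn2 held both, so that the letters did not divide the specific from the azurophil granule genes as the promoters printed here might imply. Ngp held TTGCNNAA at 2 places, and Mpo held GAGGAAG at 2 places. A related and looser pattern, TTNNGNAA, which overlaps TTGCNNAA on the opposite strand, was in 6 of the 9 and in 36.8% of the windows. These matches describe letters in the windows and do not show binding.

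Corrected for exon length, S100a9 was the most abundant of the genes, with a mean level over the 8 libraries of 71.3 CPM per kilobase, above 94.1% of tested genes. S100a8 followed with 45.3 CPM per kilobase, and Ngp with 29 CPM per kilobase. Camp had 16.9 and Lcn2 13 CPM per kilobase. Each of these 5 genes was above the next in the order in all 8 libraries. Retnlg (7.47 CPM per kilobase) was above Ltf (6.71 CPM per kilobase) in 5 of the 8 libraries, and Elane (3 CPM per kilobase) was above Mpo (2.94 CPM per kilobase) in 5, so that these neighbours could not be ordered. The azurophil granule genes thus had the lowest levels, below those of all specific granule genes.

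S100a8 and S100a9 encode the subunits of calprotectin, a calcium- and zinc-binding protein of the neutrophil cytosol. S100a8 was at 6.46 and 12.7 CPM in the 0d libraries, 15.9 and 18.1 CPM at 1d, 20.8 and 20.9 CPM at 3d, and 31.8 and 15.3 CPM at 30d, with replicate 1 first. S100a9 was at 13.2 and 32.5 CPM at 0d, 31.7 and 32.4 CPM at 1d, 44.7 and 47.3 CPM at 3d, and 63.1 and 34 CPM at 30d. For both genes the 3d libraries lay close together and above all 0d and 1d libraries, while the 30d libraries fell on either side of them. The ratio of S100a9 to S100a8 stayed between 1.79 and 2.56 in all libraries.

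The specific granule genes encode the cathelin-related protein Ngp, the antimicrobial cathelicidin Camp, the iron-binding lactoferrin Ltf and the siderophore-binding lipocalin Lcn2. Ngp was at 12.1 and 25.1 CPM at 0d, 30.3 and 32.7 CPM at 1d, 39.9 and 37.7 CPM at 3d, and 69.2 and 22 CPM at 30d. Lcn2 was at 2.87 and 8.43 CPM at 0d, 9.32 and 9.33 CPM at 1d, 15.2 and 12.9 CPM at 3d, and 22 and 8.58 CPM at 30d. For both, the order of the time points from 0d to 3d was without overlap, and the second 30d library was back below both 1d libraries. Ltf was at 6.9 and 14.7 CPM at 0d, 14.5 and 15.9 CPM at 1d, 20.7 and 20.4 CPM at 3d, and 41.4 and 12.8 CPM at 30d. Camp was at 4.78 and 7.12 CPM at 0d, 8.85 and 9.8 CPM at 1d, 10.7 and 12.4 CPM at 3d, and 19.1 and 8.25 CPM at 30d. In all 4 genes the 3d libraries came next after the highest library.

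Mpo encodes myeloperoxidase and Elane neutrophil elastase. Mpo was at 2.53 and 5.74 CPM at 0d, 9.97 and 7.84 CPM at 1d, 9.63 and 8.4 CPM at 3d, and 11.3 and 4.46 CPM at 30d. Elane was at 1.27 and 2.01 CPM at 0d, 3.8 and 3.01 CPM at 1d, 2.64 and 2.67 CPM at 3d, and 4.21 and 2.5 CPM at 30d. In contrast to the other genes, Elane was lower in both 3d libraries than in both 1d libraries, and Mpo overlapped between 1d and 3d. Retnlg, a secreted resistin-like protein of mature neutrophils, was at 1.38 and 4.21 CPM at 0d, 2.63 and 3.79 CPM at 1d, 5.9 and 6.72 CPM at 3d, and 7.65 and 4.06 CPM at 30d. Its 1d libraries lay between the 0d libraries. The ratio of Mpo and Elane to S100a8 and S100a9 was highest in the 1d libraries, at 0.289 and 0.215, and between 0.141 and 0.193 in the other 6. The ratio of Retnlg to Mpo was lowest in the 1d libraries, at 0.264 and 0.483, and between 0.545 and 0.91 in the others. These ratios were not tested.

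**Figure D1:**
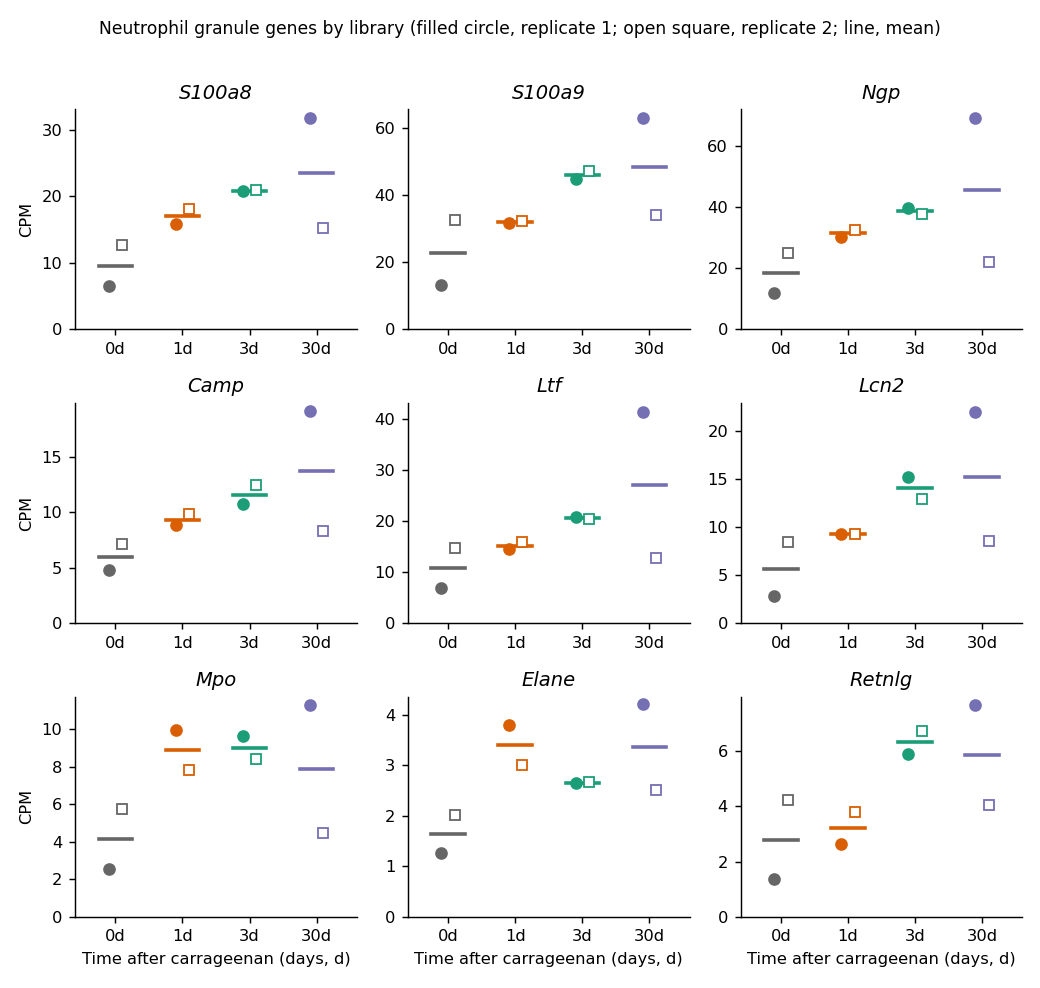
CPM (vertical axis, linear from 0) of each gene in the 8 libraries by time point in days; circles are replicate 1, squares replicate 2 and lines the mean. All 9 genes are lowest in 0d replicate 1 and highest in 30d replicate 1, and 7 of them have both 3d libraries above both 1d libraries.

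The libraries 0d replicate 1 and 30d replicate 1 stood apart for all of these genes. All 9 were lowest in 0d replicate 1, as were 10.4% of the tested genes, and all 9 were highest in 30d replicate 1, as were 15.4%. Both held for 1.93% of the tested genes. Between the 0d pools the genes differed 1.49- to 3.05-fold (median 2.13), and between the 30d pools 1.68- to 3.23-fold (median 2.31). At 1d and 3d the pools were alike, with ratios of replicate 2 to replicate 1 of 0.787 to 1.44 and of 0.849 to 1.16. The median absolute difference between the pools was 1.09 at 0d and 1.2 at 30d on the log2 scale for the 9 genes, against 0.12 and 0.14 for all tested genes. At 1d it was 0.15 against 0.11, and at 3d 0.08 against 0.07. The fitted biological coefficient of variation of the 9 genes had a median of 27.3%, against 8.01% for all tested genes. The genes followed one another across libraries, with a Pearson r of each with the mean of the other 8 between 0.84 (Elane) and 0.99 over the 8 libraries, in which all 9 genes were measured together.

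**Figure D2:**
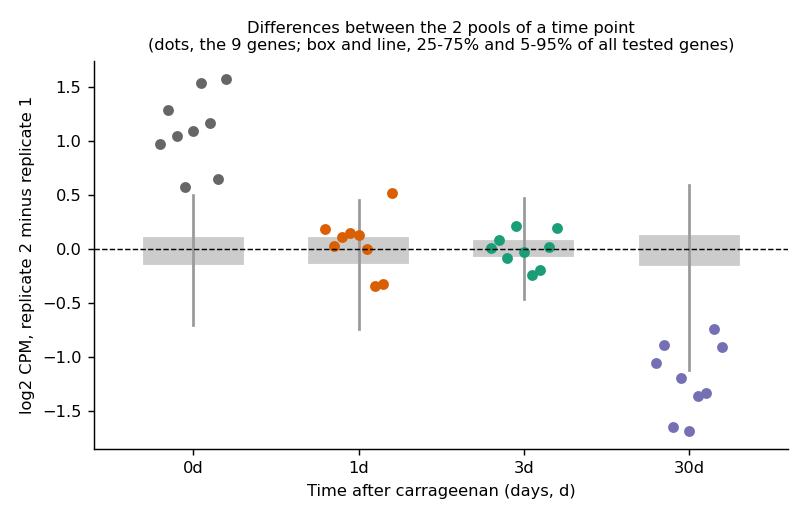
Difference in log2 CPM between replicate 2 and replicate 1 (vertical axis) at each time point in days; dots are the 9 genes, boxes hold the middle 25 to 75% and lines the 5 to 95% range of all 17328 tested genes. The 9 dots lie above the lines at 0d, from 0.57 to 1.58, and between -0.74 and -1.69 at 30d, while at 1d and 3d they surround 0.

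The first question was whether the genes differed from 0d after the injection. None of the 9 was significantly differentially expressed at 1d, 3d or 30d by edgeR's quasi-likelihood test with Benjamini-Hochberg adjustment over all tested genes, where an adjusted p-value under 0.05 was called. Of all tested genes, the shares called at these time points were 0.346%, 0.219% and 0.0231%, respectively. The log2 fold changes were nevertheless all above 0. At 1d they ranged from 0.19 to 1.1 with a median of 0.71, at 3d from 0.69 to 1.3 with a median of 1.05, and at 30d from 0.91 to 1.42 with a median of 1.19, while the median of all tested genes was 0 each time. The 3 comparisons share the 0d libraries, so that a low 0d library raises all of them.

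Elane had the narrowest intervals. Its log2 fold change against 0d was 1.05 (SE 0.3, 95% interval 0.41 to 1.69, edgeR adjusted p = 0.383) at 1d and 1.03 (SE 0.29, edgeR adjusted p = 0.191) at 30d. Lcn2 had the highest estimate at 30d, 1.42, with an interval from -0.47 to 3.31 (SE 0.7, edgeR adjusted p = 0.51). For Ngp at 3d the estimate was 1.05 with an interval from -0.79 to 2.9 (SE 0.68, edgeR adjusted p = 0.984). The intervals of Lcn2 and Ngp thus included both no change and increases of several-fold, whereas those of Elane lay above 0 before adjustment for the number of genes tested. This contrast depends on robust estimation, which gave Elane 14.5 degrees of freedom, against 4.24 for Lcn2 and 4.18 for Ngp. Without robust estimation, edgeR's unadjusted p-value at 30d was 0.00541 for Elane, 0.00757 for Lcn2 and 0.0101 for Ngp. That setting also called 0 of the 9. At an unadjusted p-value under 0.05, edgeR gave 1 of the 9 at 1d (Elane), 1 at 3d (Elane) and 2 at 30d (Camp and Elane), against 4.47%, 5.94% and 12.3% of all tested genes. DESeq2 called 0 of the 9 in each comparison, against 0.618%, 0.564% and 1.16% of the genes it tested. In it, 1, 3 and 7 of the 9 had an unadjusted p-value under 0.05. The share of all genes under that threshold was not computed for DESeq2, so nothing is read from these counts. Both libraries of the later time point were above both 0d libraries for 6 of the 9 genes at 1d, for 9 at 3d and for 5 at 30d, against 15.5%, 19.9% and 19.4% of all tested genes. None of the 9 had both libraries below both 0d libraries, against 16.4%, 19.6% and 20.2%.

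**Figure D3:**
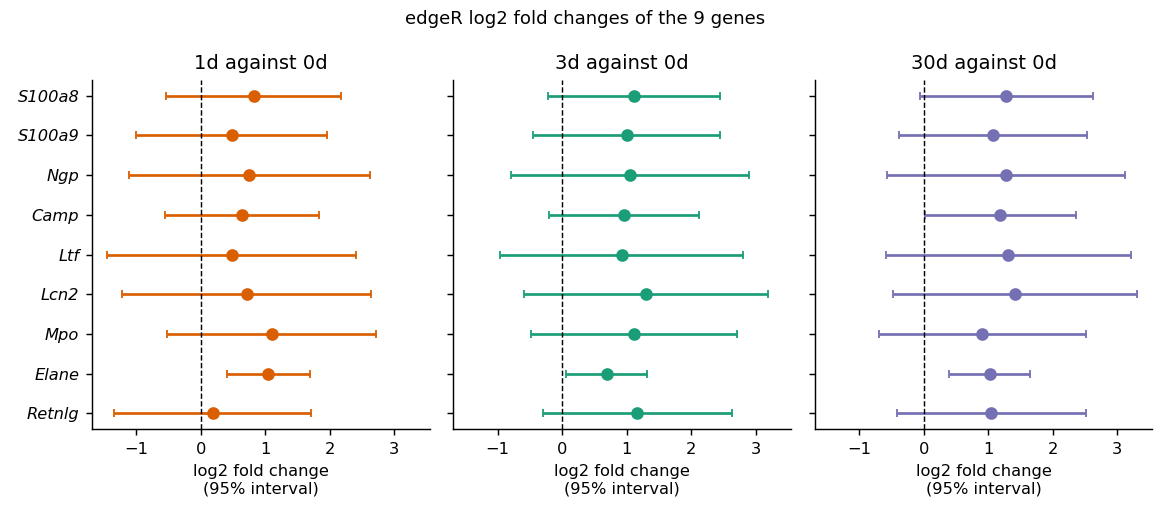
log2 fold change (horizontal axis) of each gene against 0d at 1d, 3d and 30d, from edgeR; points are estimates and bars 95% intervals. All 27 points are above 0 and 23 of the 27 intervals include 0, the exceptions being those of Elane at each time point and of Camp at 30d.

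The steps between later time points ask whether the levels went on changing. None of the 9 genes was called between 1d and 3d (0.289% of tested genes were) or between 3d and 30d (0.935%), and none had an unadjusted p-value under 0.05 in edgeR, against 4.24% and 13% of tested genes. DESeq2 also called 0 of the 9, against 0.695% and 2.64% of the genes it tested. None of the 9 had an unadjusted p-value under 0.05 in it, for which the share of all genes was not computed. From 1d to 3d the median log2 fold change was 0.32. Retnlg had the highest, 0.98 (SE 0.58, edgeR adjusted p = 1), and Elane the lowest, -0.36 (SE 0.29, edgeR adjusted p = 1). Both 3d libraries were above both 1d libraries for 7 genes, against 20% of tested genes, and below for Elane alone, against 17.6%. When only the 4 libraries of 1d and 3d were fitted, 5 of the 9 were called higher at 3d, namely S100a9, Ngp, Ltf, Lcn2 and Retnlg, with a lowest edgeR adjusted p of 2.07e-05, and 260 of all tested genes (1.55%) were called. That fit leaves out the pools between which the 9 genes differed most. Their median absolute log2 difference was 1.09 at 0d and 1.2 at 30d, against 0.15 at 1d and 0.08 at 3d. The calls of that fit thus rest on a smaller spread than the fit of all libraries measured. From 3d to 30d the median was 0.17, and all 9 genes overlapped between the time points, while 22.9% of tested genes were above and 23.5% below without overlap. This value turned on which 30d pool was used, since it was -0.64 without 30d replicate 1 and 0.65 without 30d replicate 2.

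Leaving out single libraries changed few calls. At 3d against 0d, Retnlg was called without 0d replicate 2, where 0.354% of tested genes were called. Camp was called there without 30d replicate 1 (0.68% of tested genes) and without 30d replicate 2 (0.624%). At 30d against 0d, Camp and Elane were called without 30d replicate 2, where 1.15% of tested genes were called. The medians moved more. Without 0d replicate 1 the median log2 fold change was 0.33 at 1d and 0.63 at 3d, and without 0d replicate 2 it was 1.38 and 1.69. At 30d it was 0.52 without 30d replicate 1 and 1.87 without 0d replicate 2.

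The ganglia were perfused, but transcripts of red blood cells and their precursors remained and differed between libraries together with the 9 genes. The 10 erythroid genes that could be summed, among them the globin genes Hbb-bs and Hba-a1 and the haem-synthesis gene Alas2, had a summed level of 104 and 211 CPM at 0d, 199 and 200 CPM at 1d, 135 and 141 CPM at 3d, and 403 and 205 CPM at 30d. The 9 neutrophil genes had a summed level of 51.5 and 113 CPM at 0d, 127 and 133 CPM at 1d, 170 and 169 CPM at 3d, and 270 and 112 CPM at 30d. All 10 erythroid genes were highest in 30d replicate 1 and 7 were lowest in 0d replicate 1, the same libraries that stood apart for the neutrophil genes. None of them was called in any comparison. Their part in the values of the neutrophil genes was not tested by an experiment, and in bulk tissue more cells of a type cannot be told apart from more RNA per cell.

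The 3d libraries were the exception to this shared pattern. All 10 erythroid genes were lower in both 3d libraries than in both 1d libraries, as were 17.6% of all tested genes, whereas 7 of the 9 neutrophil genes were higher in both, as were 20%. The ratio of the neutrophil sum to the erythroid sum was 0.493 and 0.532 for the 0d libraries, 0.637 and 0.665 for 1d, 1.26 and 1.21 for 3d, and 0.67 and 0.546 for 30d. For 8 of the 9 genes, all but Elane, the ratio to the erythroid sum was higher in both 3d libraries than in each of the other 6, as it was for 2.68% of all tested genes. Between the pools of 0d and of 30d the ratios differed by less than the sums did.

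**Figure D4:**
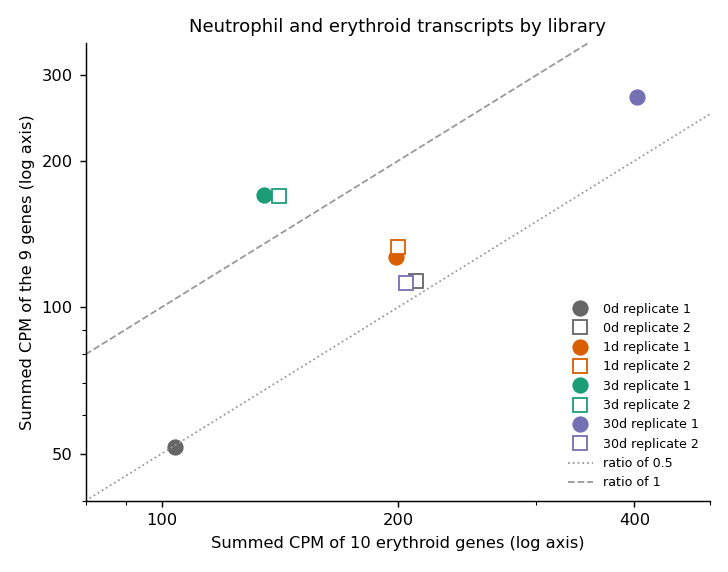
Summed CPM of the 9 neutrophil genes (vertical, log axis) against summed CPM of 10 erythroid genes (horizontal, log axis), with 1 point for each library and lines at ratios of 0.5 and 1. The 3d libraries, at ratios of 1.26 and 1.21, lie above the line of 1, and the other 6 lie between 0.493 and 0.67.

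A further fit held the mean erythroid level of each library as a term beside the time point. It was chosen after both groups of genes had been seen to differ together, so that its calls are a description and not independent evidence. The erythroid sum differed most between the pools of 0d (104 and 211 CPM) and of 30d (403 and 205 CPM). The 9 genes also differed most between those pools, so the term takes up spread that the test measures. The SE of S100a8 at 3d against 0d was 0.49 without the term and 0.13 with it. In this fit 6 of the 9 genes were called higher at 3d than at 0d, against 0.75% of tested genes. They were S100a8, Ngp, Camp, Ltf, Lcn2 and Mpo. S100a8 had a log2 fold change of 1.37 (SE 0.13, edgeR adjusted p = 0.000253), Ltf of 1.29 (SE 0.13, edgeR adjusted p = 0.000253) and Mpo of 1.46 (SE 0.17, edgeR adjusted p = 0.000355). Retnlg (1.48, edgeR adjusted p = 0.0867), S100a9 (1.28, edgeR adjusted p = 0.326) and Elane (0.86, edgeR adjusted p = 0.143) were not called. At 1d and 30d against 0d, 0 of the 9 were called, against 0.369% and 0.0866% of tested genes. Between 1d and 3d, S100a8, Ngp, Camp and Ltf were called higher at 3d (0.317% of tested genes were called), and between 3d and 30d, S100a8, Ngp, Ltf and Mpo were called lower at 30d (1.83%). The median log2 fold change from 3d to 30d was -1.04 in this fit and 0.17 without the term. When each library was left out of this fit in turn, the median log2 fold change was 1.22 to 1.55 at 3d against 0d. It was 0.21 to 0.77 at 1d against 0d and 0.2 to 0.68 at 30d against 0d. It was 0.84 to 1.14 at 3d against 1d and -1.07 to -0.79 at 30d against 3d. These fits share the limit given above, so that steady values in them add no support.

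Markers of other cell types were read in the same libraries. The 10 monocyte and macrophage genes had a summed level between 74.7 CPM (0d replicate 2) and 94.5 CPM (30d replicate 1), and none was both lowest in 0d replicate 1 and highest in 30d replicate 1. At 3d against 0d, 5 of the 10 had a log2 fold change above 0. The fractalkine receptor Cx3cr1 was the 1 called, lower at 3d with a log2 fold change of -1.02 (SE 0.14, edgeR adjusted p = 0.00794), and was also lower than at 1d, with -0.75 (edgeR adjusted p = 0.0476). The other 9 were not called, with log2 fold changes from -0.21 for Cd68 to 1.13 for Ly6c2, named as the ends of the range, and the median of the list was 0. T cell genes were scarce, with a sum of 2.53 to 3.53 CPM over 6 genes. Mature B cell genes summed to 2.86 to 6.23 CPM over 4 genes, of which 3 were lowest in 0d replicate 1 and highest in 30d replicate 1. The 6 genes of B cell precursors of the bone marrow had a sum of 0.465 to 1.3 CPM, lowest at 3d, with 16 counts of Rag2 over all libraries. Platelet genes summed to 136 to 152 CPM, of which Gp1bb made up 127 to 137 CPM, and the other 5 of the 6 were highest in 30d replicate 1, the library that was also highest for the 9 neutrophil genes. The platelet chemokine Ppbp was at 5.93 and 1.61 CPM in the 30d pools, and Pf4 at 5.49 and 2.73 CPM. The part of these cells in the values of the neutrophil genes was not tested. Mast cell and basophil genes to 9.72 to 18.2 CPM, and bone and cartilage genes to 18.2 to 28.4 CPM. The 7 skeletal muscle genes summed to 133 and 68.8 CPM at 0d, 27.6 and 59.7 CPM at 1d, 63.6 and 62.1 CPM at 3d, and 107 and 19.8 CPM at 30d, so that their sum was highest in 0d replicate 1 and next highest in 30d replicate 1. None of them had a log2 fold change above 0 at 1d or 3d against 0d, and the myosin gene Myh1 was called lower, with a log2 fold change of -1.47 at 1d (SE 0.27, edgeR adjusted p = 0.0324) and of -1.61 at 3d (SE 0.27, edgeR adjusted p = 0.0237), and higher at 30d than at 3d, with 1.35 (SE 0.27, edgeR adjusted p = 0.0292). The glial sum was highest in 0d replicate 1 and lowest in 30d replicate 1, the reverse of the neutrophil sum, although not every glial gene had this order. Of the glial genes, Apoe was called lower at 30d than at 0d, with a log2 fold change of -0.28 (edgeR adjusted p = 0.0322), and than at 3d, with -0.23 (edgeR adjusted p = 0.0128). Of the sensory neuron genes, the sodium channel gene Scn10a (0.22, edgeR adjusted p = 0.0499) and the neuropeptide gene Calca (0.32, edgeR adjusted p = 0.0237) were called higher at 3d than at 0d, and Calca lower at 30d than at 3d, with -0.43 (edgeR adjusted p = 0.00201).

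A wider list of 36 neutrophil genes outside the 9 was read beside them. Of these, 35 were in the table and 31 were tested, and none was called in any of the 5 comparisons. Their summed level ran from 302 CPM in 0d replicate 1 to 390 CPM in 30d replicate 1, a smaller range than that of the 9 genes. Much of the sum came from Serpinb1a, Mmp25 and Lyz2, at 82.5, 80.8 and 50.4 CPM in 0d replicate 1. It thus says little about the less abundant genes of the list. The 2 most abundant per length in each of its 5 groups were as follows. Lyz2, lysozyme of neutrophils and macrophages, was between 49.2 and 75.6 CPM, and Cyba, a subunit of the NADPH oxidase, between 5.37 and 8.39 CPM. Mmp9, gelatinase B, was at 5.39 and 5.98 CPM at 0d, 5.29 and 6.75 CPM at 1d, 9.31 and 9.97 CPM at 3d, and 12.9 and 7.84 CPM at 30d. Its log2 fold change against 0d was 0.08 at 1d and 0.76 at 3d (SE 0.21, edgeR adjusted p = 0.316 at 3d). Cfp, properdin, was between 4.36 and 6.38 CPM. Serpinb1a, an inhibitor of granule proteases, was between 71.5 and 87 CPM, and Ctsc, which activates these proteases, between 14.6 and 20.5 CPM. Mmp25 was between 80.8 and 92.5 CPM and G0s2 between 6.83 and 8.69 CPM. Of the lineage factors, Cebpa was between 10.6 and 13.1 CPM, and Spi1, which encodes PU.1, between 2.83 and 4.88 CPM.

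Within the wider list, 10 genes were lowest in 0d replicate 1 and highest in 30d replicate 1. They were Itgam, Mmp25, Wfdc21, Csf3r, Padi4, Cxcr2, Chil3, Hp, Cd177 and Fcnb, named because they share the pattern of the 9. The receptor for G-CSF, Csf3r, was at 2.17 and 3.46 CPM at 0d and 5.52 and 3.27 CPM at 30d. The chemokine receptor Cxcr2 was at 0.34 and 0.799 CPM at 0d and 2.48 and 0.957 CPM at 30d. Of the 31 genes, 8 had a Pearson r above 0.9 with the mean of the 9 genes over the 8 libraries, against 0.179% of the 17319 other tested genes. The azurophil protease gene Prtn3 was at 0.983 and 1.65 CPM at 0d, 3.43 and 3.65 CPM at 1d and 3.27 and 3.21 CPM at 3d, with a log2 fold change of 1.42 at 1d (SE 0.31, edgeR adjusted p = 0.0832). At 30d Prtn3 was at 3.62 and 2.06 CPM. It was picked for mention after its values were seen. The other azurophil granule genes of the list had log2 fold changes at 1d against 0d of 0.94 (Ctsg), 0.1 (Ms4a3), -0.02 (Serpinb1a) and -0.05 (Ctsc). Stfa3 had 0 counts, Stfa2 had 3 and Stfa1 had 7 over all libraries.

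The tested genes most like the mean of the 9 by Pearson r over the 8 libraries were Pglyrp1 (0.97), Il18rap (0.97), Ncf1 (0.97), Treml2 (0.96), Hp (0.95), Csf2rb2 (0.95), Cry2 (0.95), Nrgn (0.94), Arhgap9 (0.94) and Hk1os (0.94). Without 0d replicate 1 and 30d replicate 1, r was 0.95 for Ncf1, 0.94 for Treml2 and 0.91 for Cry2, but 0.72 for Hp and 0.43 for Hk1os, so that the likeness of the last rested on these libraries. Treml2 ranked the 8 libraries in the same order as the mean of the 9 genes, with a Spearman rho of 1. Pglyrp1, a peptidoglycan-recognition protein of neutrophil granules, was at 0.983 and 1.79 CPM at 0d and 4.35 and 1.8 CPM at 30d. Ncf1, a cytosolic subunit of the NADPH oxidase, was at 4.61 and 6.03 CPM at 0d, 7.39 and 7.76 CPM at 3d, and 10.7 and 6.38 CPM at 30d. The clock gene Cry2 ranked the libraries in nearly this order (Spearman rho 0.98), within a range of 114 to 128 CPM.

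**Figure D5:**
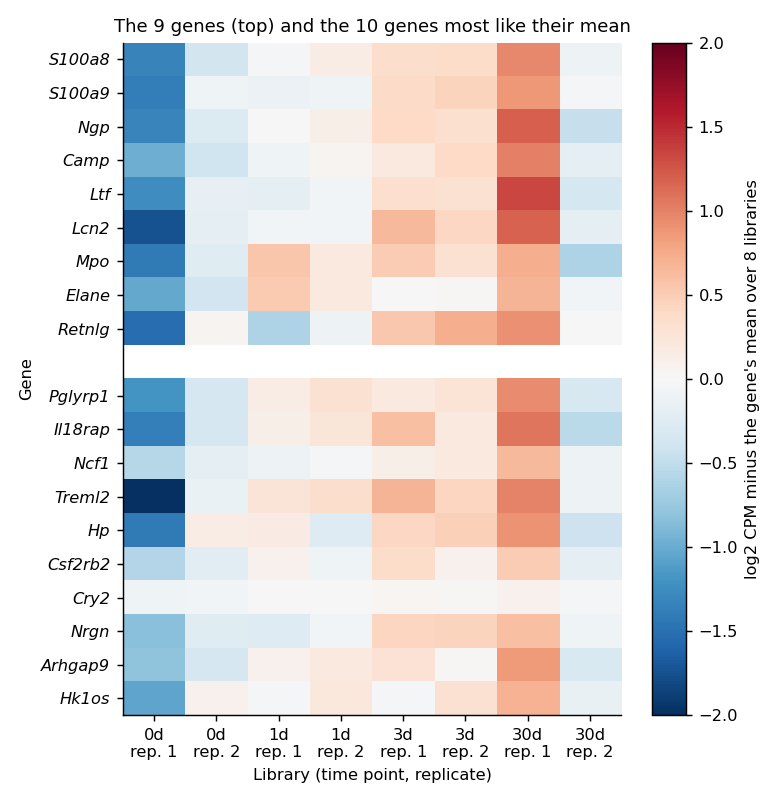
log2 CPM minus the gene's own mean (colour) in the 8 libraries (columns, by time point and replicate) for the 9 genes (upper rows) and the 10 tested genes with the highest Pearson r with their mean (lower rows). The first column is lowest and the seventh highest for the 9 genes, and Cry2 shows a nearly equal order at a far smaller range.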

How the data were processed

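Ribonucleic acid was extracted from pooled L3 to L5 ganglia in 8 libraries, 2 at each of 4 time points, prepared with a kit that does not mark strand. Per the labels and the methods of the study, the authors trimmed reads with cutadapt 2.10, mapped them to mm10 with STAR 2.7.5a and deposited whole-number read counts per gene from featureCounts 2.0.1, summed over exons without strand, with reads that map to several places not counted. Total counts were 44123208 to 73580338 per library.

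The deposited counts were tested in R 4.3.3 with edgeR 4.0.16 (filterByExpr, TMM factors of 0.993 to 1.01, robust quasi-likelihood F-test), with time point as the term and all 8 libraries in 1 fit, and p-values were adjusted over 17328 genes. DESeq2 1.42.0, RLE size factors, no filter, no robust estimation, a newer quasi-likelihood method, the compared groups alone, a replicate block, a threshold of 0.1 and each library left out were tried as alternatives. A fit with the erythroid level as a term, and 1 without 0d replicate 1 and 30d replicate 1, were added after seeing the data. The edgeR code was tested on simulated data.

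The 9 genes and all lists were chosen with earlier results of these data known. Named genes were the 9, the 2 most abundant per kilobase in each group of the wider list, genes called in it, and the 10 most like the mean of the 9; other genes were named after their values were seen. Levels in CPM use TMM-scaled totals. Hba-a2 holds the same counts as Hba-a1 in 8 of 8 libraries and was left out of sums. How equal counts arose, when reads that map to several places are stated as not counted, was not tested. The replicates are pools of mice, so p-values measure the spread between pools. Replicate numbers did not pair the libraries: correlations of same-numbered deviations were -0.01 to 0.04 over 6 pairs of time points.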

Additional observations from a re-analysis of the deposited data

How the results depend on the processing

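Of 16 alternative settings, 12 called 0 of the 9 genes in all 5 comparisons. With the compared groups alone, 5 genes were called at 3d against 1d (1.55% of all tested genes), in a fit that leaves out the wide spread of the 0d and 30d pools. With 1 library left out, 0 to 1 genes were called at 3d against 0d (0.354 to 0.68% of all tested genes where 1 was), 0 to 2 at 30d against 0d (1.15% where 2 were), and 0 to 0 in the other 3 comparisons. A time point with 1 library left was assumed to vary like the others. The replicate block called 0 of 9 in every comparison and so changed no call of the 9. Calls over all tested genes did change with it, from 4 to 69 at 30d against 0d. The 4 groups of 2 pools limit every test here.

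Some estimates changed sign when a library was left out. The log2 fold change at 1d against 0d ranged from -0.02 to 1.28 for S100a9 and from -0.39 to 1.21 for Retnlg, and at 3d against 1d from -0.15 to 0.2 for Mpo. At 30d against 3d it ranged from -0.46 to 0.61 for S100a8, -0.44 to 0.45 for S100a9, -0.82 to 0.83 for Ngp, -0.49 to 0.72 for Camp, -0.68 to 1.01 for Ltf, -0.71 to 0.65 for Lcn2, -1.02 to 0.33 for Mpo, -0.09 to 0.67 for Elane and -0.64 to 0.28 for Retnlg.

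Without both 0d replicate 1 and 30d replicate 1, 7 genes were called higher at 3d against 0d (1.79% of all tested genes were called), 5 at 3d against 1d (1.6%), and 7 lower at 30d against 3d (9.11%). These libraries were left out for their own values of the 9 genes, which removes the spread that the test measures, so these calls support nothing. In this fit the log2 fold change at 1d against 0d was -0.02 for S100a9 and -0.39 for Retnlg. At 30d against 0d it was -0.19 for Ngp, -0.20 for Ltf, -0.37 for Mpo and -0.05 for Retnlg. At 30d against 3d it was -0.45 for S100a8, -0.44 for S100a9, -0.82 for Ngp, -0.49 for Camp, -0.68 for Ltf, -0.71 for Lcn2 and -0.09 for Elane.

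With the erythroid level as a term, 6 genes were called at 3d against 0d (0.75% of all tested genes), 4 at 3d against 1d (0.317%) and 4 at 30d against 3d (1.83%). With each library left out of that fit in turn, 0 to 4 genes were called at 1d against 0d (0.23 to 1.65% of all tested genes), 6 to 8 at 3d against 0d (0.14 to 2.62%), 0 to 4 at 30d against 0d (0.0337 to 5.82%), 1 to 7 at 3d against 1d (0.0562 to 1.5%) and 1 to 7 at 30d against 3d (0.241 to 7.26%). Signs changed with the term for Retnlg at 1d against 0d (-0.02), for Elane at 3d against 1d (0.01), and at 30d against 3d for S100a8 (-0.75), S100a9 (-0.83), Ngp (-1.16), Camp (-0.70), Ltf (-1.04), Lcn2 (-1.17) and Elane (-0.32). The cause of these changes was not tested.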
